A study of Mus musculus with 61 samples.

Results

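Zinc finger protein genes are the members of the promoter and enhancer table of mouse embryonic stem (ES) cells whose symbol starts with Zfp or Zbtb and goes on with a digit, without Zfp42. The rule found 109 of the 5154 genes of that table, 95 with a Zfp and 14 with a Zbtb symbol, with 117 of its 5513 promoters and 313 of its 14265 enhancers. The names were not a perfect guide. Zbtb8os is named for lying opposite Zbtb8 and is no zinc finger gene by that name, and Zfp91-Cntf is a readthrough transcript whose start lies 1 bp from that of Zfp91. All values below therefore describe a set chosen by symbol.

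The cells were fibroblasts of E13.5 mouse embryos with the genotype Col1a1::tetOP-OKSM ; R26-M2rtTA, in which doxycycline (2 µg/ml) turns on Oct4, Klf4, Sox2 and Myc. They were taken at day 3 in serum/LIF medium with doxycycline and ascorbate, so controls and knockdown cells alike were reprogramming cells and carried the transgenes. Sono-seq sequences fixed chromatin after sonication, which breaks accessible regions more readily, and was done on 3 CAF-1 knockdown and 3 Renilla control libraries. Sox2 ChIP-seq was done on 1 immunoprecipitate and 1 input each with the hairpins Chaf1a.166, Chaf1a.2122 and Renilla. The other 49 of 61 samples, among them all RNA-seq, were not analysed here, so neither the knockdown nor any expression of the zinc finger genes was checked.

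Most Zfp genes encode proteins with C2H2 zinc fingers, which read DNA sequence. Many mouse Zfp proteins also carry a KRAB domain that recruits Trim28, and with it Setdb1, which places H3K9me3 on retroelements and imprinted loci in ES cells. Zbtb proteins join such fingers to a BTB domain that binds other proteins, often corepressors. CAF-1, the chaperone that places histones on newly replicated DNA, has been studied as a guard of silent chromatin, and Sox2 is one of the factors that drive reprogramming.

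Members had their largest shares on 3 chromosomes, each above the share of all genes, and the rest were spread over 16 others. Chromosome 7 held 24 of them (22.0%, against 8.30% of all genes of the table), chromosome 13 held 13 (11.9% against 3.90%) and chromosome 17 held 11 (10.1% against 5.10%). Of the 109, 43 had the start of another member within 200 kb, in 16 groups of neighbours. The largest group, on chromosome 13, held 9 members. Positions of starts, enhancers and Sox2 are given on mm9 throughout.

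Promoters of selected members are printed first. Shown are members with a Sox2 position within 500 bp of the start in all 3 lists and a sequence at hand (Zfp428, Zfp658, Zfp668, Zfp36l1), then Zfp296, which had Sox2 in both Chaf1a lists only, and Zfp26, which had the highest Sono-seq ratio of the set and no Sox2 position within 10 kb. Each runs from 250 bases before to 50 after a RefSeq start in GRCm38.p6, 5′ to 3′. They lie at chr7:24506837-24507136 (Zfp428, plus strand), chr7:43562120-43562419 (Zfp658, plus), chr7:127876787-127877086 (Zfp668, minus, 1 of 2 windows), chr12:80112964-80113263 (Zfp36l1, minus), chr7:19577037-19577336 (Zfp296, plus) and chr9:20460111-20460410 (Zfp26, minus). Capitals mark 2 motifs on either strand, the Sox core, ACAAT or, read on the other strand, ATTGT, and the octamer, ATGCAAAT or, read on the other strand, ATTTGCAT, which POU factors such as Oct4 read.
Zfp428: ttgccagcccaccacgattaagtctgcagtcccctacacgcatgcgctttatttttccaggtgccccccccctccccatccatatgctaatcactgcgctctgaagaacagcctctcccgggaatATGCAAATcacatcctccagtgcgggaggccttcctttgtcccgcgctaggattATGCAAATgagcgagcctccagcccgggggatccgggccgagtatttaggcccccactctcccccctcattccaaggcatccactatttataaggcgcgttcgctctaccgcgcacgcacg
Zfp658: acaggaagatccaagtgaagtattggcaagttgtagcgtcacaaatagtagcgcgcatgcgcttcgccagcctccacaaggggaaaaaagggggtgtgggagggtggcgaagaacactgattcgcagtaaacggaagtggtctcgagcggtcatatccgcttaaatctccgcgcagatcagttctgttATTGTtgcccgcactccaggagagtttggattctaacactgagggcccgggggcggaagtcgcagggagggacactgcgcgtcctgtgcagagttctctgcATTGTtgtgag
Zfp668: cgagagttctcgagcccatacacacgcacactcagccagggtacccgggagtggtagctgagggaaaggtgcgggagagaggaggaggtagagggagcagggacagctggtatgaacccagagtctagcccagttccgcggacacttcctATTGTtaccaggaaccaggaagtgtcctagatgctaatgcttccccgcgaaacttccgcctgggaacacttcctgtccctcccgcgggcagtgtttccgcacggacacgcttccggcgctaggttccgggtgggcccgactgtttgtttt
Zfp36l1: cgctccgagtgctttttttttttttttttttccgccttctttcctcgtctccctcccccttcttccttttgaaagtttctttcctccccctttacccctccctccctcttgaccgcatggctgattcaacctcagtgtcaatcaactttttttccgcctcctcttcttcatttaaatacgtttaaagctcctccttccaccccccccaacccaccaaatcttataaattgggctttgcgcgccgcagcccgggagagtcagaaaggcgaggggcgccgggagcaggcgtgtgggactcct
Zfp296: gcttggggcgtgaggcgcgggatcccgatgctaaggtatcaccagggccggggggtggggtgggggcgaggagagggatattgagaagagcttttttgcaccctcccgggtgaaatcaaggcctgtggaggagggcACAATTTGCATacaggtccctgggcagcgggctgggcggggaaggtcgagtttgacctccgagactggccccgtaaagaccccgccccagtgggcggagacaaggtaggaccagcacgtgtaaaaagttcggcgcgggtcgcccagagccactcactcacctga
Zfp26: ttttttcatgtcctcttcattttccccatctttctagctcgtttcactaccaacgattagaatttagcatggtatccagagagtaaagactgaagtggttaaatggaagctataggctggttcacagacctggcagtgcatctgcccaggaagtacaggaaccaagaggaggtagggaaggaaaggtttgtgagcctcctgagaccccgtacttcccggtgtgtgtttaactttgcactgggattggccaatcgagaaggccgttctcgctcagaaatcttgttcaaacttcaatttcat

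Zfp428 held the octamer 2 times and no Sox core, Zfp658 the Sox core 2 times and Zfp668 once. The other window of Zfp668, not printed, held neither. In Zfp296 the 2 motifs overlapped in 1 run, ACAATTTGCAT. Zfp36l1 and Zfp26 held neither, which says only that these letters are not in these windows. RefSeq windows were found for 85 of the 109 members, 102 windows in all. The Sox core stood in 23 of them (22.5%, 95% exact interval 14.9 to 31.9), against 19.6% of the 5148 windows of all genes of the table. The octamer was searched for after the Zfp428 sequence had been seen. It stood in 4 windows (3.92%), those of Zfp428, Zfp296, Zfp207 and Zfp263, against 1.75% of the table's windows. Since Zfp428 prompted the search and is 1 of the 4, the 2 shares are not a fair comparison. The share with a Sox core was 3 of 11 windows of members with Sox2 within 2 kb in all 3 lists and 12 of 51 windows of members with none within 10 kb (27.3% and 23.5%), too few to set apart. Member windows had a median of 18.5 CG dinucleotides (quartiles 10 and 24.75), against 22 (13 and 30.0) for all genes of the table. These windows are on GRCm38 and the Sox2 positions on mm9, and no coordinate was converted, so a motif was not placed relative to a position. By distance from the start alone, the positions of Zfp296, 1511 bp (Chaf1a.166) and 4831 bp (Chaf1a.2122) away, lay outside the reach of its window. The run ACAATTTGCAT is thus not at a listed position, if both builds use the same start.

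The share of zinc finger genes with Sox2 within 10 kb of a start was close to, or a little above, that of all genes of the table. The Chaf1a.166 list had a position near 37 of 109 members (33.9%, 25.1 to 43.6), against 28.5% of all genes. The Chaf1a.2122 list had one near 42 (38.5%, 29.4 to 48.3), against 33.4%, and the Renilla list one near 32 (29.4%, 21.0 to 38.8), against 29.3%. Each share of all genes lies within the counting interval of the members. Each list holds what passed the caller's own limit, so an unlisted place is not an unbound one, and the lists differ in length, at 15888 (Chaf1a.166), 19319 (Chaf1a.2122) and 17681 (Renilla) positions. With 1 immunoprecipitate per hairpin there is no test between them.

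Close to the start site the member counts were almost the same in the 3 lists. Within 2 kb they were 22 for Chaf1a.166 (20.2%, 13.1 to 28.9), 21 for Chaf1a.2122 (19.3%, 12.3 to 27.9) and 21 for Renilla (19.3%), against 13.8%, 16.9% and 14.2% of all genes. Within 50 kb they were 64, 75 and 73 (58.7%, 68.8% and 67.0%), against 65.8%, 70.5% and 66.5%. The members' shares were thus above those of all genes at 2 kb and close to or below them at 50 kb, in each case with an interval that holds the share of all genes.

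**Figure D1:**
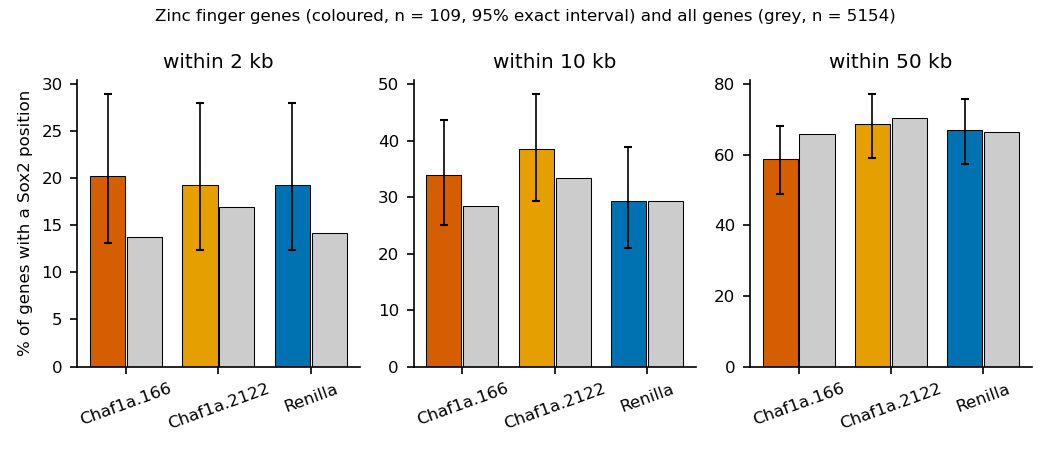
Percent of zinc finger genes (coloured bars, n = 109, with 95% exact binomial intervals) and of all genes of the table (grey bars, n = 5154) with a Sox2 position within 2, 10 or 50 kb of a start site, for the Chaf1a.166, Chaf1a.2122 and Renilla lists. The y axis differs between panels. At 2 kb the coloured bars stand at 20.2%, 19.3% and 19.3%, and every interval includes the value of the grey bar beside it.

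Split by Sono-seq level, the members near Sox2 sat mainly in 2 of the 4 quartiles of promoter level. In the lowest quartile, 2 of 28 members had a Chaf1a.166 position within 2 kb (7.14%, against 12.9% of other genes there), 4 a Chaf1a.2122 position (14.3% against 16.0%) and 3 a Renilla position (10.7% against 14.4%). In the second quartile it was 10 of 31 (32.3% against 15.0%), 8 (25.8% against 18.5%) and 10 (32.3% against 15.7%), and in the highest 7 of 30 (23.3% against 13.3%), 8 (26.7% against 15.4%) and 7 (23.3% against 12.2%). In the third it was 3 of 20 (15.0% against 13.5%), 1 (5.00% against 17.5%) and 1 (5.00% against 14.3%), so members were below other genes there in 2 of the 3 lists. Other genes varied little over the quartiles, while the members' counts are small and showed no steady order with level.

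Members with Sox2 in every list numbered 25 within 10 kb (22.9%, 15.4 to 32.0, against 20.8% of all genes). At 15 of these 25 (60.0%) the nearest positions of the 3 lists lay within 200 bp of each other, against 790 of 1073 (73.6%) over all genes. The others of the 25 had different nearest positions in different lists, which does not exclude a shared position farther off. At Zfp13 the lists also held positions at 23738390 (Chaf1a.166), 23738391 (Chaf1a.2122) and 23738351 (Renilla). At Zfp532 they held 65737718, 65737736 and 65737708, in the same order. Within 2 kb, 13 members had Sox2 in every list (11.9%, 6.51 to 19.5, against 8.50%). Zfp428, on chromosome 7 with its start at 25292105, had the tightest agreement. Its positions lay 110 bp (Chaf1a.166), 108 bp (Chaf1a.2122) and 107 bp (Renilla) from the start, and ranked 2281 of 15888, 2006 of 19319 and 3220 of 17681 by score.

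Zfp87, in the chromosome 13 group, had positions 79 bp (Chaf1a.166), 66 bp (Chaf1a.2122) and 2 bp (Renilla) from its start, with ranks of 7029, 11508 and 17514. The Renilla position was among the weakest of its list, and Zfp87 was without it when lists were held to equal length. Zfp658 had them at 3 bp, 439 bp and 47 bp, and Zfp36l1 at 395 bp, 104 bp and 80 bp. Zfp36l1 encodes a CCCH protein that binds AU-rich elements and speeds mRNA decay, a job in RNA and not in DNA reading.

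Some listed positions serve a pair of members. Zfp668 and Zfp646 on chromosome 7 start 877 bp apart, at 135020337 and 135021214, and share their positions, which lay 79, 38 and 81 bp from Zfp668 and 798, 839 and 796 bp from Zfp646 (Chaf1a.166, Chaf1a.2122 and Renilla). They are 1 site and not 2 observations. Zbtb8os (680, 687 and 780 bp), Zfp62 (820, 792 and 750 bp), Zfp553 (728, 545 and 698 bp), Zfp568 (896, 864 and 952 bp) and Zfp605 (1667, 1677 and 1697 bp) each had their nearest positions within 200 bp of each other. Zfp568 encodes a KRAB protein that silences a placental transcript of Igf2 in mouse, and its positions ranked 2968 (Chaf1a.166), 2143 (Chaf1a.2122) and 4001 (Renilla).

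**Figure D2:**
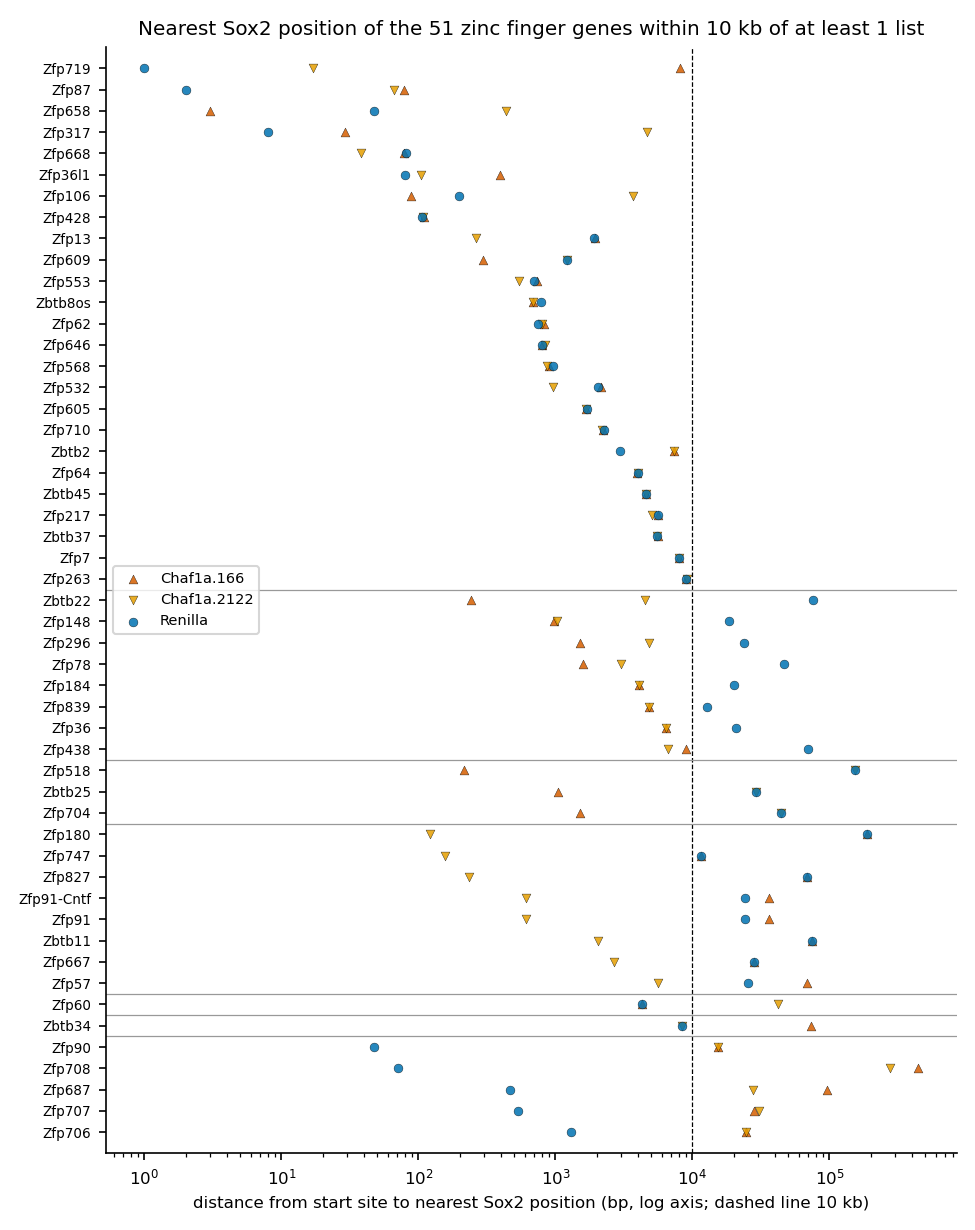
Distance in bp (log axis) from the start site to the nearest Sox2 position of the Chaf1a.166 (upward triangles), Chaf1a.2122 (downward triangles) and Renilla (circles) lists, for the 51 zinc finger genes with a position within 10 kb (dashed line) in at least 1 list. Grey lines part the genes by which lists lie within 10 kb, from all 3 at the top (25 genes) to Renilla alone at the bottom (5 genes).

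A further 8 members had a position within 10 kb in both Chaf1a lists and none in the Renilla list (7.34%, 3.22 to 13.95, against 2.99% of all genes, just below the interval). They were Zbtb22, Zfp148, Zfp184, Zfp296, Zfp36, Zfp438, Zfp78 and Zfp839. At 4 of them the nearest positions of the Chaf1a lists lay within 200 bp of each other, a share of 50.0% against 75.3% of the 154 genes of this class in the table. The remaining 4 thus had different nearest positions in the 2 lists, between 3320 and 15643 bp apart.

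The 4 with a common place were Zfp148, Zfp184, Zfp36 and Zfp839. Zfp148, which encodes a GC-box binding regulator, had positions 972 bp (Chaf1a.166, rank 5446) and 1024 bp (Chaf1a.2122, rank 6139) from its start on chromosome 16 at 33380860, with none of the Renilla list closer than 18545 bp. Zfp36, which encodes tristetraprolin, the founding CCCH mRNA decay factor, had them at 6359 and 6407 bp, with Renilla at 20806 bp. Zfp184 had them at 4068 and 4053 bp, with Renilla at 20164 bp, and Zfp839 at 4781 and 4783 bp, with Renilla at 12782 bp, just outside the window.

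Zfp296, a gene of germ cells and pluripotent cells, was of the other kind. Its positions lay 1511 bp (Chaf1a.166, rank 12880 of 15888) and 4831 bp (Chaf1a.2122, rank 13474 of 19319) from its start on chromosome 7 at 20162635, which is 3320 bp apart, and Renilla had none closer than 23590 bp. Zbtb22 had 241 and 4502 bp, Zfp78 had 1594 and 3002 bp and Zfp438 had 9021 and 6622 bp, each on either side of its start. Only Zfp148 and Zfp78 of the 8 kept both Chaf1a positions when an enrichment lower bound of at least 2 was required, under which 4 members (3.67%, against 2.62% of all genes) were in the class. Within 2 kb the class held 1 member, Zfp148 (0.917% of members, against 1.82% of all genes). Within 50 kb it held 3 (2.75% of members, against 4.38% of all genes). At both of these distances the members' share was below that of all genes. The size of the class, and the members' higher share given above, thus depend on the chosen distance. The class is also 1 of several list classes looked at.

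The mirror class, Renilla alone, held 5 members (4.59%, 1.51 to 10.4, against 3.26% of all genes), namely Zfp687, Zfp706, Zfp707, Zfp708 and Zfp90. All 5 Renilla positions were near the start, at 468, 1293, 531, 71 and 47 bp. Their ranks were 14310, 16746, 14892, 16637 and 7884 of 17681, so 4 of the 5 were in the weaker part of the list. Zfp90 had the strongest, while its nearest Chaf1a positions were 15469 bp (Chaf1a.166) and 15429 bp (Chaf1a.2122) away. Zfp706 is known from mouse ES cells, where it helps them leave self-renewal. Positions of a single Chaf1a list were found at 3 members for Chaf1a.166 (2.75%, against 2.97%) and 8 for Chaf1a.2122 (7.34%, against 6.05%). Zfp60 had Chaf1a.166 and Renilla (1.69% of all genes) and Zbtb34 Chaf1a.2122 and Renilla (3.51%). The 8 include Zfp91 and Zfp91-Cntf, which share 1 position, and Zfp57, which keeps imprints silent and had its Chaf1a.2122 position 5564 bp from the nearest of its 4 starts.

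The remaining 58 members (53.2%, 43.4 to 62.8, against 58.7% of all genes) had no position within 10 kb in any list. Among them were Zfp809, a KRAB protein that silences murine leukaemia virus in ES cells, Zfp462, which acts on heterochromatin in ES cells, and Zbtb33, which encodes Kaiso, a reader of methylated DNA. Zbtb7a, a regulator of red cell and lymphoid genes, Zbtb48, which binds telomeres, and Zfp207, a spindle and kinetochore protein, were also without one. Zfp36l2, the relative of Zfp36 and Zfp36l1, had its nearest positions 82036 bp (Chaf1a.166), 82037 bp (Chaf1a.2122) and 82031 bp (Renilla) away. The 3 genes of the CCCH decay family thus fell into 3 different classes.

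Sono-seq signal at zinc finger promoters was nearly alike with and without CAF-1 knockdown. The 117 promoters had a median value of 0.139 in CAF-1 knockdown and 0.141 in Renilla cells, against 0.141 and 0.143 at the 5396 other promoters, in the authors' values of unstated unit. As a log2 ratio, CAF-1 over Renilla had a median of -0.015 (95% interval from order statistics -0.056 to 0.030), against -0.0092 at other promoters. Of the members' promoters, 54 (46.2%, 36.9 to 55.6) were above a ratio of 1, against 48.2% of all promoters. The table holds 1 value per condition, so none of these differences has a replicate error or a test.

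By a rule of size, a ratio of at least 1.2-fold, 14 of the 117 promoters were higher with CAF-1 knockdown (95% interval of the share 6.70% to 19.3%) and 16 were lower (13.7%, 8.02 to 21.3). Over all promoters the shares were 11.3% and 13.3%, so the members' counts lay at the background in both directions. The spread over members, an SD of 0.23 on the log2 scale, equalled that of other promoters (0.23), and none reached 2-fold.

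**Figure D3:**
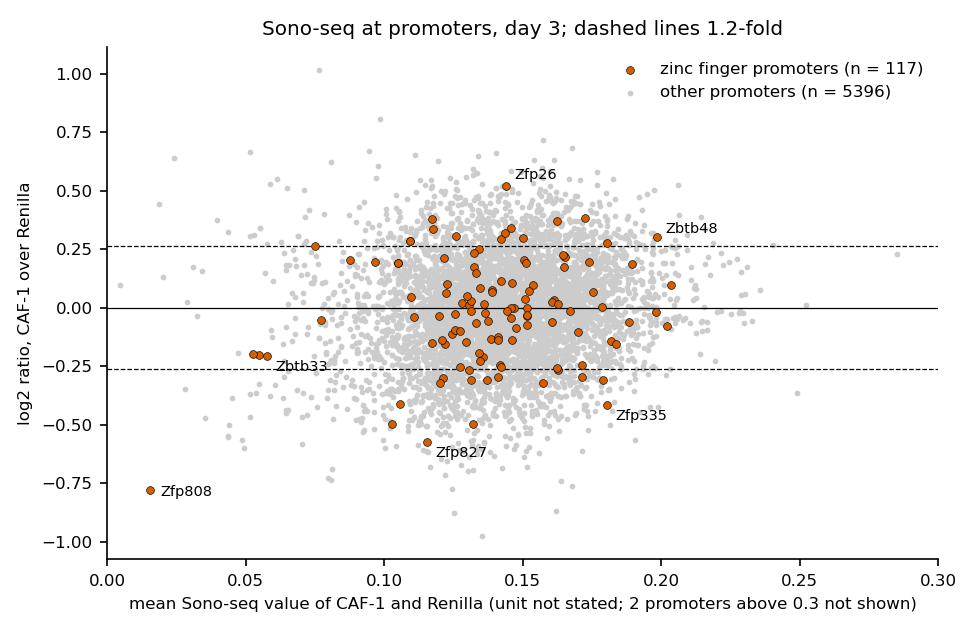
Log2 ratio of CAF-1 over Renilla at each promoter against the mean of both Sono-seq values (unit not stated), for 117 zinc finger promoters (orange) and 5396 others (grey), with dashed lines at 1.2-fold. 2 promoters above 0.3 are not shown. The zinc finger promoters lie within the cloud of the others, with Zfp808 alone at the low end of the level axis.

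Setting members beside other genes of like level changed little. In the lowest quartile of mean level the members' median log2 ratio was -0.038 (29 promoters), against -0.039 at other promoters. In the second it was -0.056 (37) against -0.020, in the third -0.00019 (21) against -0.0048, and in the highest 0.0094 (30) against 0.026. Both sets had higher medians in the upper quartiles than in the lower ones, and the members' intervals held the other promoters' median in all 4 quartiles.

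Among members above the median level of all promoters, Zfp26 had the highest ratio, with 0.170 in CAF-1 knockdown and 0.118 in Renilla cells (log2 ratio 0.52). Zfp41 followed with 0.195 and 0.150 (0.38), Zfp64 with 0.183 and 0.141 (0.37) and Zfp839 with 0.163 and 0.129 (0.34). One start of Zfp655, with 0.159 and 0.128 (0.32), was the last of the 5. Zfp64 also had a Sox2 position 3956 bp (Chaf1a.166), 3975 bp (Chaf1a.2122) and 3981 bp (Renilla) from its start, which ranked 691, 739 and 570, the best rank of any member's position within 10 kb in the Chaf1a.2122 and Renilla lists. In the Chaf1a.166 list only that of Zfp532, at rank 384, was ahead.

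At the lower end, Zfp335, which encodes a chromatin-bound regulator needed in neural progenitors, had 0.155 in CAF-1 knockdown and 0.206 in Renilla cells (-0.42). Zfp78 had 0.140 and 0.175 (-0.32), Zfp667 had 0.160 and 0.198 (-0.31), Zfp13 had 0.154 and 0.189 (-0.29) and Zfp319 had 0.148 and 0.178 (-0.27). Zfp78 and Zfp667 are neighbours on chromosome 7, 77833 bp apart, and Zfp13 has Zfp213 (0.109 and 0.155, -0.50) 35261 bp away on chromosome 17. The lowest ratio of all members, -0.78 at Zfp808, came from values of 0.0115 and 0.0198, which are also the lowest of any member promoter in either condition.

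Genes with known roles in silencing did not share a direction. Of 12 listed genes of ES cell, retroelement and imprint control, 6 were in the table with 10 promoters, of which none was past 1.2-fold. Over all promoters 11.3% were higher and 13.3% lower by that rule, so 10 promoters are too few to set apart. Zfp57 had log2 ratios between -0.23 and -0.02 at its 4 starts, which lie close together, Zfp568 had -0.24 (0.130 in CAF-1 knockdown, 0.154 in Renilla cells) and Zfp462 had -0.09 (0.122 and 0.130). Zfp809 had 0.19 (0.112 and 0.0981), Zfp296 had 0.03 (0.163 and 0.160) and Zfp553 had -0.07 (0.130 and 0.136). Zbtb33 had low values of 0.0534 and 0.0617 (-0.21); it is the only member on the X chromosome.

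In the other role lists the promoters of a list lay on 1 side of a ratio of 1, with at most 3 genes in each. Lists with 1 promoter cannot do otherwise, and those with 2 or 3 are too small to show a shared direction. In the table were 1 of 4 listed methylation readers, 2 of 9 BTB lineage regulators, 3 of 3 CCCH decay genes, 2 of 8 RNA and ribosome genes, 2 of 2 cell division genes, 1 of 2 ubiquitin and SUMO genes and 2 of 8 developmental genes. Of their promoters those of Zbtb48 and Zfp91 were past 1.2-fold, both higher, against 11.3% higher and 13.3% lower of all promoters. Zbtb48 had 0.219 in CAF-1 knockdown and 0.178 in Renilla cells (0.30), and Zbtb7a had 0.131 and 0.113 (0.21). The 3 CCCH decay genes were all slightly lower, at -0.06 for Zfp36, -0.13 for Zfp36l1 and -0.14 for Zfp36l2. Zfp91, a ubiquitin ligase, had 0.120 and 0.0985 (0.29), a value it shares with Zfp91-Cntf. Zfp106 (-0.11) and Zfp346 (-0.09), which bind RNA, Zfp207 (-0.15), Zfp830 (-0.02), Zfp217 (-0.15) and Zfp148 (-0.15) stayed within 1.2-fold. The 15 Zbtb promoters had a median of 0.021 with 10 above a ratio of 1, and the 102 Zfp promoters a median of -0.024 with 44 above it.

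Neighbouring zinc finger genes did not always go the same way. In most groups of 2 both members lay on 1 side, such as Zfp658 (0.20) and Zfp719 (0.12), or Zfp668 (-0.24) and Zfp646 (-0.16). These groups include Zfp91 and Zfp91-Cntf, which share 1 value and cannot differ. They also include Zfp263 and Zfp174, with log2 ratios of only -0.00019 and -0.00051. Many pairs would agree without any link, and whether these agree more often was not tested. Other groups of 2 were split, such as Zfp7 (0.23) and Zfp251 (-0.06). The 3 groups with at least 3 members were all mixed. On chromosome 7 between 30768973 and 30906966, Zfp82 (0.30), Zfp566 (0.22), Zfp260 (0.10) and Zfp382 (0.25) were higher with CAF-1 knockdown and Zfp568, at the edge of the group, was lower. In the group of 9 on chromosome 13, 5 were higher, the highest being 0.34 at Zfp708, and 4 were lower, among them Zfp459 at -0.04. Next to each other at the edge of it, Zfp708 had 0.34 and Zfp712 -0.30. On chromosome 17, Zfp53 (0.38) stood against Zfp54 (-0.19) and Zfp51 (-0.07).

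**Figure D4:**
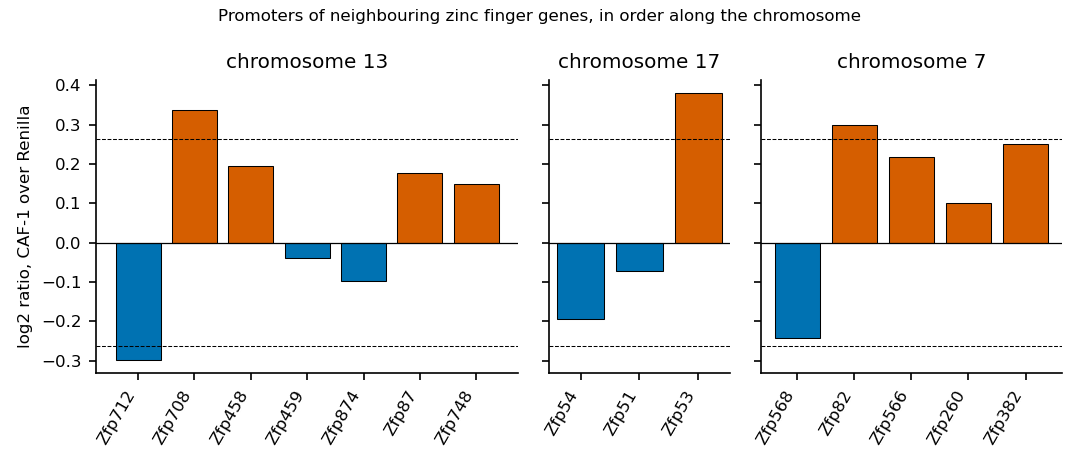
Log2 ratio of CAF-1 over Renilla at the promoters of the 3 groups with at least 3 neighbouring zinc finger genes, in their order along the chromosome, with dashed lines at 1.2-fold. In the chromosome 7 group 4 of 5 bars point up, and in the chromosome 13 group 4 of the 7 drawn, with 2 members not drawn.

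Zinc finger enhancers had slightly lower CAF-1 over Renilla ratios than other enhancers, by their medians. The 313 enhancers assigned to members had median values of 0.137 in CAF-1 knockdown and 0.135 in Renilla cells, against 0.140 and 0.137 at the 13952 others. Their median log2 ratio was -0.0087 (-0.033 to 0.026), against 0.029 (0.024 to 0.033) at other enhancers, which lay just above the members' interval, and 153 (48.9%, 43.2 to 54.6) were above a ratio of 1, against 55.3% of all enhancers. The members' median was the lower in each quartile of level. In the highest quartile the other enhancers' median lay above the members' interval (-0.041 to 0.060), and in the other 3 within it. The medians were -0.023 against -0.0068 in the lowest, 0.0026 against 0.019 in the second, -0.015 against 0.033 in the third and -0.0065 against 0.067 in the highest.

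The gap between the medians is small beside the spread over single enhancers, an SD of 0.24 in members and 0.23 in others. Past 1.2-fold, 54 member enhancers were higher (17.3%, 13.2 to 21.9) and 33 lower (10.5%, 7.37 to 14.5), against 15.5% and 10.6% of all enhancers, so neither count lay far from the background. With 1 value per gene in place of 1 per enhancer, the members' median was 0.016 against 0.032 at other genes, above 0 in both. Enhancers are not independent, since 125 of the 313 (39.9%) are assigned also to genes other than members, and neighbours share values.

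Of the 109 members, 45 had 1 enhancer and 24 had 5 or more. The median was 2 enhancers per member, against 3 per other gene. Zfp36l1 had the most, at 27, with a mean log2 ratio of 0.017 ± 0.19 (SD over enhancers) and 11 above 0. Zfp532 had 17 (-0.035 ± 0.23, 4 above 0) and Zfp36 had 13 (0.11 ± 0.21, 8 above 0), as many as Zfp704 (0.00091 ± 0.21, 6 above 0). All 13 of Zfp36 were assigned also to genes other than members. Zfp653 had the highest mean among genes with at least 5, at 0.26 ± 0.21 with 4 of 5 above 0, and Zfp462 the lowest, at -0.11 ± 0.32 with 1 of 6 above 0. The SD was larger than the size of the mean in all of these but Zfp653.

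**Figure D5:**
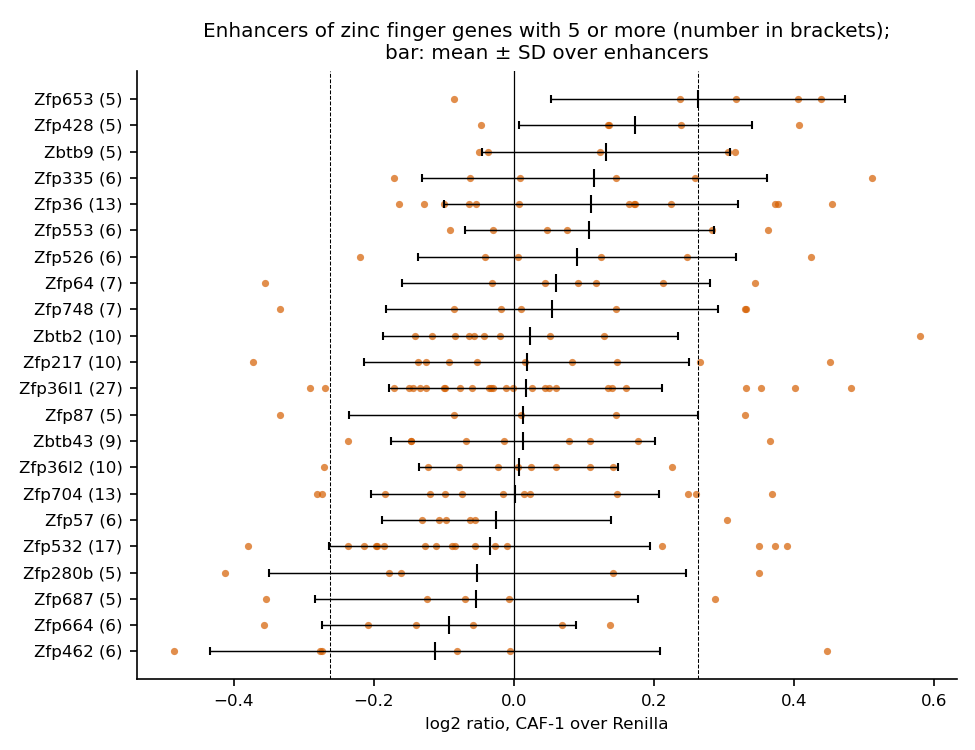
Log2 ratio of CAF-1 over Renilla at each enhancer (points) of 22 of the 24 zinc finger genes with 5 or more (2 are not drawn), with the mean and SD over enhancers (bars) and dashed lines at 1.2-fold. Means run from -0.11 at Zfp462 to 0.26 at Zfp653.

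Among member enhancers above the median level, the highest ratio was at 164693400 on chromosome 2, assigned to Zfp335 and Pltp, with 0.181 in CAF-1 knockdown and 0.127 in Renilla cells (0.51). The promoter of Zfp335 was on the opposite side, as given above. An enhancer of Zfp36l1 on chromosome 12 at 81229500 had 0.168 and 0.120 (0.48), and one assigned to 7 genes, Zfp36 among them, had 0.172 and 0.126 (0.45). An enhancer shared by Zfp568 and Zfp260 on chromosome 7 at 30777500 had 0.161 and 0.118 (0.45). Zfp217, whose human counterpart is an oncogene, was at both ends, with 0.196 and 0.143 (0.45) at 169946600 on chromosome 2 and 0.143 and 0.185 (-0.37) at 169786800.

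The lowest of them was an enhancer of Zfp462 on chromosome 4 at 54999250, with 0.128 in CAF-1 knockdown and 0.179 in Renilla cells (-0.49). An enhancer of Zfp532 had 0.156 and 0.202 (-0.38), one of Zfp867 had 0.147 and 0.187 (-0.35) and one of Zfp296 had 0.157 and 0.192 (-0.29). Across the 109 genes, the promoter ratio and the mean enhancer ratio went weakly together (Spearman's rho 0.15, against 0.011 over other genes), as a description only, since both come from the same libraries.

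Few zinc finger enhancers had Sox2. A position lay within 500 bp of 7 of the 313 in the Chaf1a.166 list (2.24%, 0.904 to 4.55), 8 in the Chaf1a.2122 list (2.56%, 1.11 to 4.97) and 6 in the Renilla list (1.92%, 0.707 to 4.13), against 3.33%, 3.65% and 3.20% of all enhancers. These were 8 enhancers in all (2.56%, against 4.78% with a position of any list), and at 6 all 3 lists held one (1.92%, against 2.22%). Members thus had Sox2 within 2 kb of the start at a share above that of all genes and at their enhancers at a share below that of all enhancers, with intervals that, for each single list, hold the value of all.

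The enhancer of Zfp788 on chromosome 7 at 48837700 was the strongest of the 8 in the Chaf1a lists, with positions 101 bp (Chaf1a.166, rank 1130), 104 bp (Chaf1a.2122, rank 2290) and 115 bp (Renilla, rank 6915) away and Sono-seq values of 0.0791 in CAF-1 knockdown and 0.0893 in Renilla cells. Zfp704 had 2 of the 8. At 9524200 on chromosome 3 all lists held a position, 359, 382 and 329 bp away, and the Sono-seq ratio was 0.26. At 9547000 the Chaf1a lists had one 329 and 351 bp away while the nearest Renilla position was 9296 bp off, and the ratio was -0.27. Sono-seq values were 0.184 in CAF-1 knockdown and 0.154 in Renilla cells at the first and 0.128 and 0.155 at the second. The other enhancers with all 3 lists were assigned to Zbtb37, Zfp36 (2 of them) and the pair of Zfp646 and Zfp668, and 1 of Zfp462 had Chaf1a.2122 alone. Those of Zbtb37 and Zfp36 were assigned also to genes other than members.

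The genes that zinc finger proteins work with were looked up in the same way. Of 20 listed partners of KRAB and BTB silencing, 16 were in the table with 18 promoters and a median log2 ratio of -0.046. Past 1.2-fold, 1 was higher, Morc3 (0.169 in CAF-1 knockdown, 0.132 in Renilla cells, 0.36), and 1 was lower, a start of Cbx5, which encodes HP1 alpha (0.102 and 0.144, -0.50), against 11.3% higher and 13.3% lower of all promoters. Sox2 lay within 10 kb of 5 (Chaf1a.166), 8 (Chaf1a.2122) and 5 (Renilla) of the 16, against 28.5%, 33.4% and 29.3% of all genes. All 3 lists held a position at 3 of the 16, namely Trim28, Cbx1 and Cbx3, against 20.8% of all genes. These are too few to set apart.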

How the data were processed

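Each Sox2 list was deposited by the authors as positions, per the labels from 1 immunoprecipitate with its own input as control. Per the file headers, the deposited lists rate positions by score, by E-value, by q-value (false discovery rate) and by the enrichment ratio, of which a lower bound is also given. The Sono-seq table deposited by the authors gives 1 value per condition at ES cell enhancers and promoters of a published set, per the file headers. These values were treated as a score, since neither unit, scaling and window nor the pooling of 3 libraries is stated. The submitters' processing notes name mm9 as build and, for no stated step, Bowtie and BWA 0.7.8. For the position caller, the name was not given in the sources used here. Read depth is unknown.

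With Python 3.11.15, pandas 2.3.3 and scipy 1.17.1, log2 ratios were taken without a pseudocount, each region once. Sox2 was counted at a gene if any of its starts had a position within 10 kb. With 1 value or 1 immunoprecipitate per condition no test was made. The planned limma test needed values per library. Members, role lists and tests were chosen with earlier results of these data known. Named genes were those of the role lists, the 5 highest and 5 lowest ratios above the median level, the 8 closest members with Sox2 within 2 kb in all lists, the members with both Chaf1a lists only or Renilla only, the 3 with most enhancers, and the 5 highest and 5 lowest enhancer ratios above the median level. Other genes named were chosen after their values were seen. Intervals of shares are exact Clopper-Pearson at 95%, and those of medians come from order statistics. Both cover counting error only and take genes as independent, which neighbours are not. Levels were split into 4 quartiles over all regions. Names came from the files. Of 109 members, 108 had a transcript in the RefSeq gene table of GRCm38.p6, 8 of them under another symbol. The distance search and the intervals were tested on simulated data. The values of 2 members are not reported here singly, though counts and medians include them. Counts of zinc fingers per protein were not made, as protein sequences were not used here.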

Additional observations from a re-analysis of the deposited data

How the results depend on the processing

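Alternatives kept the medians of both region types within their intervals. Promoter medians ran from -0.034 (both columns scaled to equal medians, a shift of 0.019) to 0.0025 (only above the median level). Enhancer medians ran from -0.028 (scaled) to 0.016 (1 value per gene), with -0.025 for enhancers of no other gene, and the other enhancers stayed above the members, at 0.0093 when scaled and 0.032 per gene. Counts near Sox2 depend on the distance by construction. Within 2 kb they were 22 (Chaf1a.166), 21 (Chaf1a.2122) and 21 (Renilla), with 1 for both Chaf1a lists and not Renilla. Within 50 kb they were 64, 75, 73 and 3. An enrichment lower bound of at least 2 left 25, 27, 20 and 4, against 37, 42, 32 and 8. These are 22.9%, 24.8%, 18.3% and 3.67% of members, against 20.3%, 20.7%, 19.8% and 2.62% of all genes, so the Renilla share was then below that of all genes. Lists of equal length (the best 15888 positions) gave 37, 34, 28 and 8 (33.9%, 31.2%, 25.7% and 7.34%, against 28.5%, 28.1%, 26.5% and 2.99% of all genes). The 8 were not all the same genes, as Zbtb22 and Zfp438 left and Zfp106 and Zfp87 entered. At 1.1-fold in place of 1.2-fold, 32 promoters and 93 enhancers were higher and 34 and 68 lower. At 1.5-fold, 0 promoters and 2 enhancers were higher, and 1 and 2 lower. The shares over all regions were not counted at 1.1-fold and 1.5-fold, so these member counts cannot be set against a background. The size rules and the counts without Zfp91-Cntf and Zbtb8os, or without the enhancers of Zfp36l1, were added after seeing the data. Leaving these out moved no count near Sox2 by more than 2 and kept the medians within their intervals. No paired analysis was possible because neither data type gives values by replicate (Sono-seq 1 value a condition, Sox2 1 immunoprecipitate a hairpin), which also kept libraries from being left out in turn.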
